A study of Mus musculus with 4 samples.

Results

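The CHD family of chromatin remodelers was described by its RNA levels in mouse embryonic stem cells mutant for Chd2 and in wild-type cells. The 10 members Chd1 to Chd9 and Chd1l were taken by symbol from a table of 23309 genes, and all 10 were listed. RNA was sequenced from the Chd2 mutant, called Chd2 mut/mut in the genotype label and Chd2KO in the titles, and from wild type, with 2 libraries (lot 1 and lot 2) per genotype. Both genotypes are of strain 129/Ola, at passages 10 to 20 in serum and LIF on gelatin, with no feeder layer named in the labels. The labels give neither the kind of lesion in the Chd2 alleles, nor the number of mutant clones, nor whether the lots are separate cultures, so a q-value may measure technical spread only.

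CHD proteins carry paired chromodomains, which contact histone tails or DNA, next to an ATPase motor of the SNF2 type that slides, spaces or exchanges nucleosomes. Chd1 and Chd2 act at transcribed genes and have a DNA-binding domain after the motor. Chd3, Chd4 and Chd5 are alternative motors of the NuRD complex, which joins remodeling to histone deacetylation. Chd6 to Chd9 are the largest members, several of them with BRK domains. Chd1l, also called Alc1, has a macro domain in place of chromodomains and is switched on by poly(ADP-ribose). In embryonic stem cells Chd1 is known for open chromatin and Chd4 for restraining differentiation genes.

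Whether reads of such related genes can be told apart bears on every value below. The coding sequences of the longest annotated forms were therefore compared in GENCODE M21 (build GRCm38, not the authors' mm9). Coding length ran from 2703 bases in Chd1l to 8961 bases in Chd7, and was 5484 bases in Chd2 and 5136 bases in Chd1. Capitals show a longest run of identical coding bases in each of 3 pairs. Up to 10 flanking coding bases on each side are in lower case. Chd1 and Chd2 share 3 different stretches of 20 bases, of which the first in Chd1 is shown. Only exact identity was compared, so where reads would be hardest to separate was not tested.
Chd2 (chromosome 7, coding bases 1254 to 1293): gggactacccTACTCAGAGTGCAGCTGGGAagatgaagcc
Chd1 (chromosome 17, coding bases 1236 to 1275): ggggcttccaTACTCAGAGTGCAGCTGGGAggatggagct
Chd4 (chromosome 6, coding bases 3426 to 3480): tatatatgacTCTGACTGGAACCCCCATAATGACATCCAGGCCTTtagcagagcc
Chd3 (chromosome 11, coding bases 3612 to 3666): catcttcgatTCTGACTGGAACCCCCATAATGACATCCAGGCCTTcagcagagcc
Chd8 (chromosome 14, coding bases 3672 to 3714): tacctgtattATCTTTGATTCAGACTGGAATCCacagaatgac
Chd7 (chromosome 4, coding bases 4107 to 4149): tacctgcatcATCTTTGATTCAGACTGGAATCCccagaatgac

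The identical run was 20 bases long between Chd2 and Chd1, 35 bases between Chd4 and Chd3, and 23 bases between Chd8 and Chd7. Over all 45 pairs of members the 35-base run of Chd4 and Chd3 was the longest, followed by 30 bases between Chd4 and Chd5. No stretch of 50 bases in the transcript of any member occurred in a transcript of another member. The read length is unknown here, so 50 bases is only a yardstick.

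Some members do share transcript sequence with annotated genes outside the family. Both strands were searched, so a shared stretch may be antisense to the other transcript. In the Chd2 transcript 5.97% of the 50-base stretches also lay in transcripts of 1810026B05Rik, the long noncoding RNA now named Chaserr, which starts upstream of Chd2 and overlaps its beginning in the annotation. In mice Chaserr is known to lower Chd2 expression in cis. In Chd8 6.12% of the stretches lay in annotated transcripts of Gm26590 or Gm49656, and in Chd1l 3.14% lay in Gm43075. The share was at most 1.07% in the other 7 members, and was 0 in Chd1, Chd3, Chd4 and Chd7. How reads in such stretches were divided between the genes is not stated.

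Levels are given in FPKM, fragments scaled for transcript length and library size, a per-length unit in which genes can be compared. The authors deposited 1 FPKM value per gene and genotype, so no value has a standard deviation, and the depth of the libraries is unknown. Significance is that of the authors' deposited table, whose call of yes goes with a q-value under 0.05. That table calls 81 of 23309 genes, or 0.348%, and among the 10766 genes whose mean over the genotypes reaches 1 FPKM it calls 0.697%. The RNA comes from bulk cultures, in which less RNA per cell and fewer cells of a kind cannot be told apart. All 10 pluripotency markers, such as Pou5f1, were at 16.7 FPKM or more in both genotypes. Their summed level was 7264 FPKM in the mutant and 6634 FPKM in wild type, with 8 of 10 higher in the mutant, a median change of log2(FPKM + 1) of 0.13 and no call. Nanog was at 150.1 FPKM in the mutant and 114 FPKM in wild type, and Sox2 at 222 FPKM in the mutant and 178 FPKM in wild type. Of 8 fibroblast markers only Thy1 reached a mean of 1 FPKM, and the summed level of the list was 11.8 FPKM in the mutant and 14.7 FPKM in wild type. Col3a1, Lum and Postn were listed at 0 in both. None of 8 primitive endoderm markers reached that mean, and their summed level was 1.59 FPKM in the mutant and 1.91 FPKM in wild type. Of 8 neural markers 5 did, with summed levels of 60.4 FPKM in the mutant and 61.3 FPKM in wild type, mostly from Tubb3. The part of these markers in the results below was not tested.

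Chd2, the mutated gene, was the only member called, and its RNA fell. Chd4, Chd1l and Chd5 were also lower in the mutant, by differences that were not called. Chd2 stood at 5.69 FPKM in mutant cells, against 10.2 FPKM in wild type, or 55.9% of wild type. In the authors' deposited table its log2 fold change is -0.84 at a q of 0.0103, the lowest q of the table, which 55 genes share. Chd2 RNA was thus reduced and still detected. The table gives no value per exon or allele, and whether the remaining RNA can be translated was not analysed here. Among the 977 genes with a mean FPKM within 1.2-fold of that of Chd2, 8 had an absolute log2 fold change as large or larger, Chd2 included, and 5 of those 8 were called.

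Chd1, the closest relative of Chd2, was number 2 of the family by level in the mutant and number 3 in wild type. It was at 18.9 FPKM in the mutant and 16.7 FPKM in wild type. It was not called, and its log2 fold change is 0.18 at a q of 0.935 in the authors' deposited table. Of 963 genes of like level, chosen in the same way, 22.1% differed as much or more between the genotypes. With Chd2 lower, the ratio of Chd1 to Chd2 was 3.32 in the mutant and 1.63 in wild type. The summed level of the pair was 24.6 FPKM in the mutant and 26.8 FPKM in wild type, so the difference in Chd1 (2.25 FPKM) was smaller than the opposite one in Chd2 (-4.50 FPKM).

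**Figure D1:**
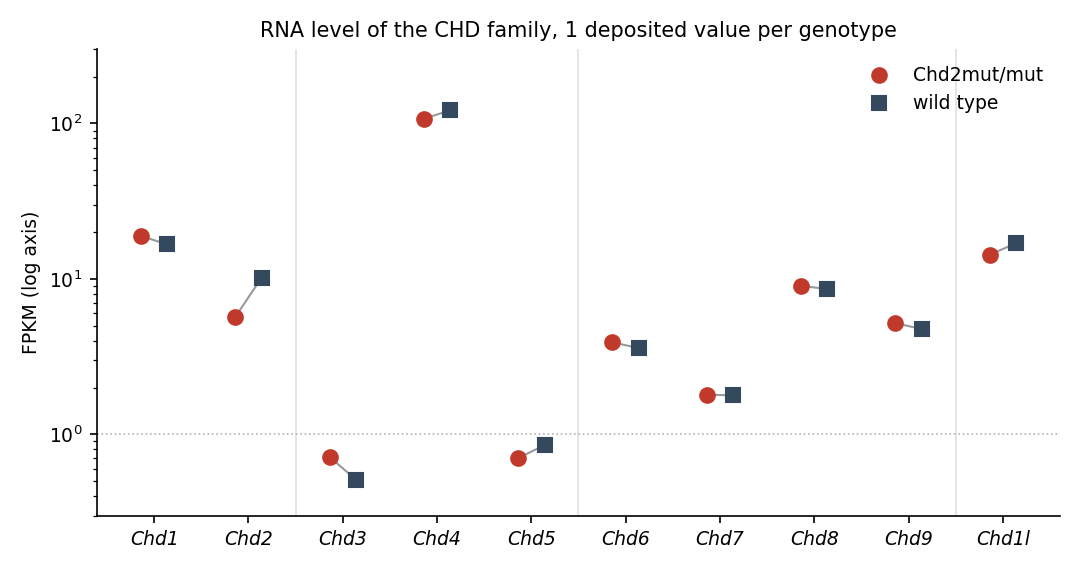
FPKM of each member on a log axis in the Chd2 mutant (circle, left) and in wild type (square, right), 1 deposited value per genotype with no error bar. Grey vertical lines separate Chd1 and Chd2, Chd3 to Chd5, Chd6 to Chd9 and Chd1l, and the dotted line marks 1 FPKM. Chd2 shows the widest gap of the members above that line (5.69 and 10.2 FPKM), and Chd4 stands above all others.

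Chd4, the NuRD motor of most cell types, carried most of the family's RNA. It was at 107 FPKM in the mutant and 121 FPKM in wild type, which made up 64.0% of the summed family level in the mutant and 65.5% in wild type. In the authors' deposited table its log2 fold change is -0.18 at a q of 0.941, and 22.2% of 306 genes of like level differed as much or more. Its alternatives in the complex were below 1 FPKM in both genotypes. Chd5, known from neurons and testis, was at 0.704 FPKM in the mutant and 0.853 FPKM in wild type. Chd3 was at 0.716 FPKM in the mutant and 0.512 FPKM in wild type. Neither was called, with q-values of 0.941 for Chd5 and 1 for Chd3 in the authors' deposited table. Chd4 exceeded Chd5 by 152-fold in the mutant and 142-fold in wild type, and exceeded Chd3 by 149.8-fold in the mutant and 237-fold in wild type. The order of Chd3 and Chd5 differed between the genotypes, and no replicate error shows whether these low values differ.

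The members Chd6 to Chd9 lay between 1 and 10 FPKM, and none was called. Chd8, which in humans is tied to autism and is known to bind beta-catenin, was the most abundant of them, at 9.02 FPKM in the mutant and 8.61 FPKM in wild type. Chd9 was at 5.19 FPKM in the mutant and 4.76 FPKM in wild type. Chd6 was at 3.91 FPKM in the mutant and 3.59 FPKM in wild type. Chd7, mutated in human CHARGE syndrome, was the least abundant of this group, at 1.80 FPKM in the mutant and 1.78 FPKM in wild type. In each case the mutant value was the higher by a ratio of 1.01 (Chd7) to 1.09 (Chd9 and Chd6), and for Chd7 the direction turned under quantile normalization. The authors' q-values for these 4 genes were 0.996 or higher in their deposited table. Their summed level was 19.9 FPKM in the mutant and 18.7 FPKM in wild type.

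Chd1l was number 3 by level in the mutant and number 2 in wild type. Its RNA was at 14.3 FPKM in the mutant and 16.97 FPKM in wild type. It had the lowest q-value of the members other than Chd2, at 0.817, beside a log2 fold change of -0.25 in the authors' deposited table, and was not called. Of 986 genes of like level, 12.7% differed as much or more. In the annotation its span overlaps that of Fmo5, a monooxygenase gene chosen after its values were seen, which was at 0.101 FPKM in the mutant and 0.0592 FPKM in wild type.

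Ranked by level, the family ran Chd4, Chd1, Chd1l, Chd8, Chd2, Chd9, Chd6, Chd7, Chd3 and Chd5 in the mutant, and Chd4, Chd1l, Chd1, Chd2, Chd8, Chd9, Chd6, Chd7, Chd5 and Chd3 in wild type. Thus 6 of 10 members stood at a different place, in 3 swaps of neighbours. Chd2 was number 5 in the mutant and number 4 in wild type, and Chd8 stood above it in the mutant and below it in wild type. Chd8 exceeded Chd2 by 1.59-fold in the mutant, whereas its level was 0.845 times that of Chd2 in wild type. In the mutant Chd2 was 1.096 times the level of Chd9, the next member down. Chd1l and Chd1 were within a ratio of 1.02 of each other in wild type, and Chd3 and Chd5 within 1.02 in the mutant. The widest gap between neighbours was that below Chd4 in both genotypes, at 5.67-fold in the mutant and 7.15-fold in wild type. Without replicate values, no neighbours in this order can be said to differ beyond their spread.

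Of the 10 members, 8 had a mean over 1 FPKM, and 1 of these was called, against 0.697% of all genes at that level and 0.348% of all listed. The called member is the gene the study mutated, so its call is not a result on the rest of the family. Of the 7 others above 1 FPKM none was called, 5 were above 0 and 2 below, and their log2 fold changes in the authors' deposited table ran from -0.25 to 0.18. Over all genes kept, 5343 lay above 0 and 5423 below. On the scale of log2(FPKM + 1), used from here on for changes, the median of the 8 members was 0.03, against -0.0012 for all genes kept. It was -0.18, the value of Chd4, among the members whose mean reached 5 FPKM (Chd4, Chd1, Chd1l, Chd8 and Chd2). These include the mutated gene, and the sign depends on which members are counted. The summed family level was 167 FPKM in the mutant and 185 FPKM in wild type. Chd4 made up -14.05 FPKM of that difference and Chd2 -4.50 FPKM.

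**Figure D2:**
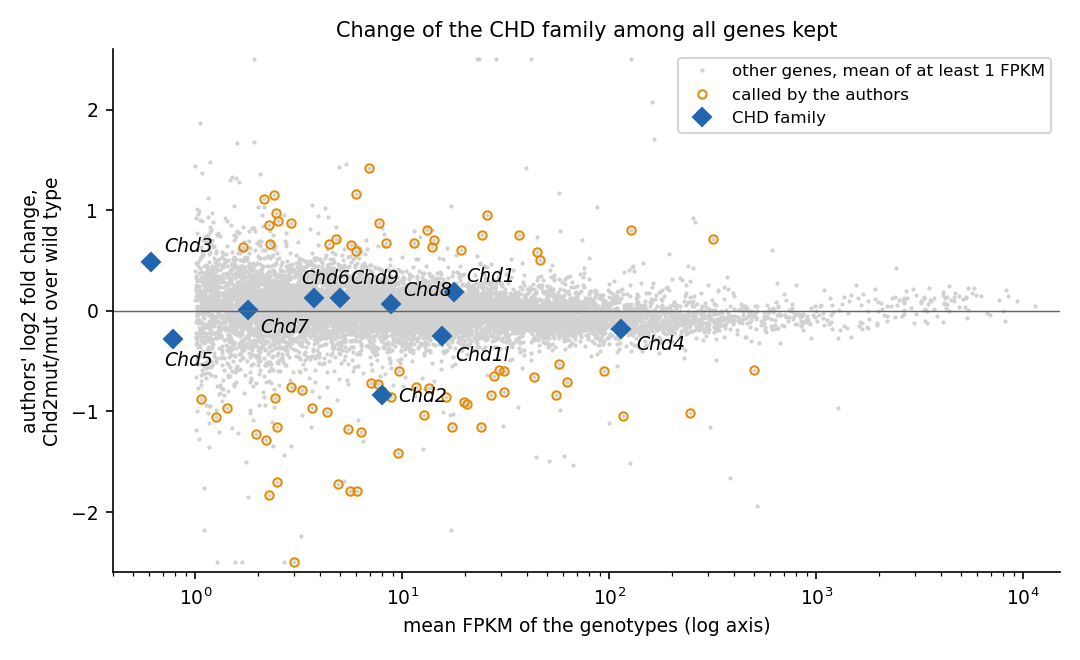
The authors' log2 fold change (Chd2mut/mut over wild type) against mean FPKM on a log axis, for the family (diamonds) and for genes averaging 1 FPKM or more (grey), with called genes ringed. Values beyond 2.5 in either direction are drawn at 2.5 and infinite ones are left out. Chd2 lies at -0.84 among called genes, and the other members lie between -0.28 and 0.49 within or, below 1 FPKM, to the left of the grey cloud.

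The family was then set beside 21 other genes for SNF2-type ATPases, such as those of the SWI/SNF, ISWI and INO80 complexes. Srcap was also on this list but was not matched by symbol, so it is missing from the order below. The most abundant of all 31 was Hells, a remodeler needed for DNA methylation, at 169 FPKM in the mutant and 172 FPKM in wild type. Chd4 came next in both genotypes. Smarca5, an ISWI motor, was at 63.7 FPKM in the mutant and 65.8 FPKM in wild type. Smarca4, a SWI/SNF motor also called Brg1, was at 47.3 FPKM in the mutant and 49.7 FPKM in wild type. Smarcad1 was at 39.99 FPKM in the mutant and 41.1 FPKM in wild type, and Rad54l, a recombination motor, at 24.8 FPKM in the mutant and 25.7 FPKM in wild type. These 5 motors and Chd4 held the same places, 1 to 6, in both genotypes. Chd2 was number 19 of 31 in the mutant and number 16 in wild type.

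None of these 21 genes was called. By absolute log2 fold change, the largest difference among the 20 that averaged 1 FPKM or more was that of Ercc6l2. Its level was 4.26 FPKM in the mutant and 5.18 FPKM in wild type (q-value 0.742 in the authors' deposited table). Rad54l2 was at 10.3 FPKM in the mutant and 8.98 FPKM in wild type, and Atrx, a remodeler that deposits H3.3, at 23.1 FPKM in the mutant and 21.5 FPKM in wild type. The median change of the 20 was -0.02, with 6 above 0 and 14 below. By absolute log2 fold change Chd2 was first of the 28 ATPase genes above 1 FPKM, followed by Ercc6l2 and then Chd1l.

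**Figure D3:**
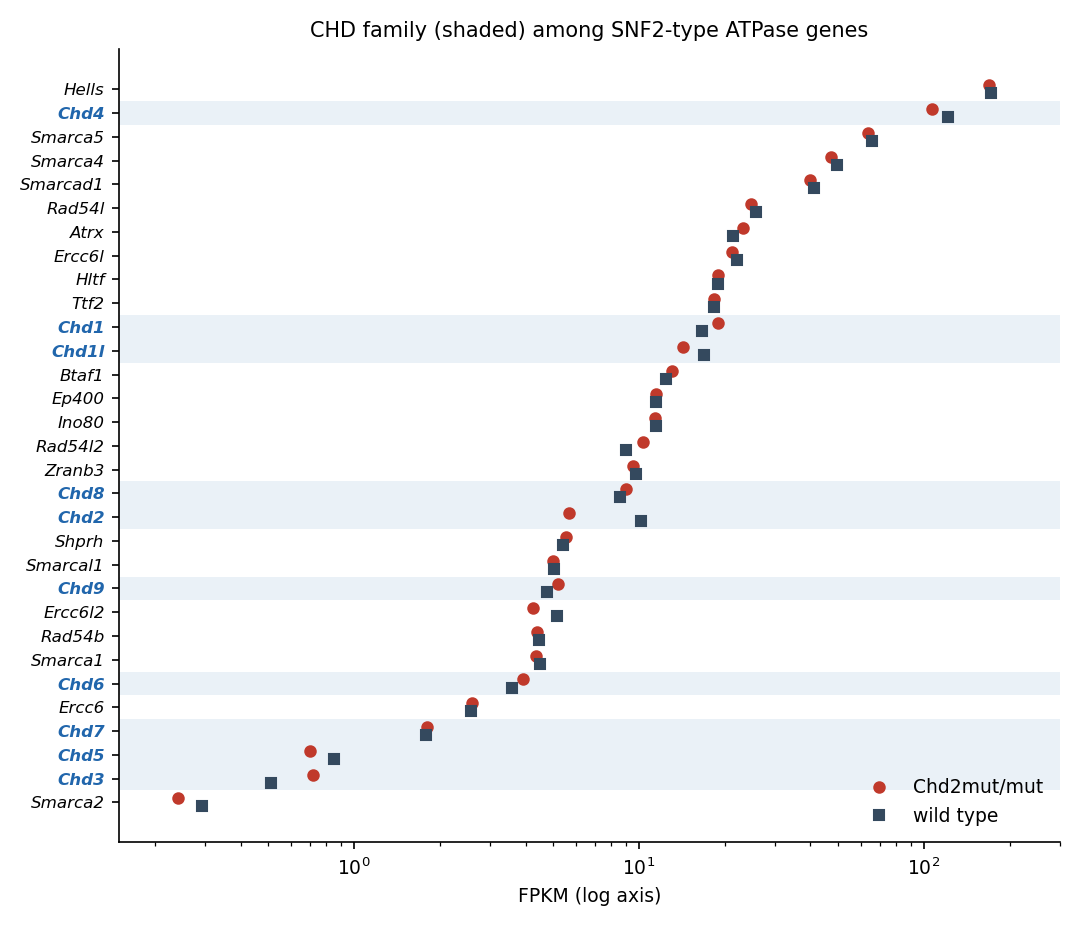
FPKM on a log axis of 31 SNF2-type ATPase genes, ordered by mean level, in the Chd2 mutant (circles, above) and wild type (squares, below), with the CHD members shaded. The 2 symbols of most genes nearly coincide, Chd2 shows 5.69 and 10.2 FPKM, and the members span the range from Chd4 at 107 and 121 FPKM to Chd3 at 0.716 and 0.512 FPKM.

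Genes whose products work with the family held no call either, and the table gives no unadjusted p-value to count. The 12 other NuRD subunits, which form the complex around Chd4, all averaged over 1 FPKM, with a median change of -0.04, 3 above 0 and 9 below. Mbd2, which binds methylated DNA, was at 6.27 FPKM in the mutant and 7.41 FPKM in wild type. Mta1 was at 37.3 FPKM in the mutant and 32.8 FPKM in wild type, and the histone-binding Rbbp7 at 177 FPKM in the mutant and 194 FPKM in wild type. The deacetylase Hdac1 was the most abundant of these subunits, at 267 FPKM in the mutant and 282 FPKM in wild type, and was added after its values were seen.

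The 12 transcription elongation and FACT factors, with which Chd1 is known to associate in yeast and mammals, had a median change of -0.10, 3 above 0 and 9 below. Ssrp1, a FACT subunit, was at 189.5 FPKM in the mutant and 213 FPKM in wild type. Paf1 was at 46.2 FPKM in the mutant and 51.6 FPKM in wild type, and Cdc73 of the same complex at 24.9 FPKM in the mutant and 27.6 FPKM in wild type. The 9 genes for histone H3.3 and its deposition had a median of 0.01, 6 above 0 and 3 below. H3f3b, which encodes H3.3, was at 280.01 FPKM in the mutant and 323 FPKM in wild type. The other H3.3 gene of the list, H3f3a, was at 449.8 FPKM in the mutant and 447.5 FPKM in wild type. H3f3a was added after its values were seen. Ubn1 of the HIRA complex was at 5.01 FPKM in the mutant and 4.28 FPKM in wild type, and the histone chaperone Asf1b at 37.0 FPKM in the mutant and 41.5 FPKM in wild type.

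For the partners of CHD7 and CHD8, 9 genes that include subunits of the PBAF and H3K4 methyltransferase complexes, the median was -0.02, with 3 above 0 and 6 below. Wdr5 was at 89.0 FPKM in the mutant and 80.6 FPKM in wild type, Ash2l at 168 FPKM in the mutant and 182 FPKM in wild type. Ctnnb1, which encodes beta-catenin, was at 217 FPKM in the mutant and 239 FPKM in wild type. All 5 genes of poly(ADP-ribose) signalling around Chd1l lay below 0, with a median of -0.06 and no change beyond -0.07. Among them Parp2 was at 24.8 FPKM in the mutant and 26.03 FPKM in wild type, and the repair scaffold Xrcc1 at 31.8 FPKM in the mutant and 33.2 FPKM in wild type. Parg, which removes the polymer, was at 19.96 FPKM in the mutant and 20.8 FPKM in wild type. Against the background of 0.697% called, lists of 5 to 20 genes would mostly hold no call, so their counts of 0 carry little information. The medians of these lists and their counts above and below 0 were not compared with genes of like level. Nor were they recomputed under quantile normalization.

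**Figure D4:**
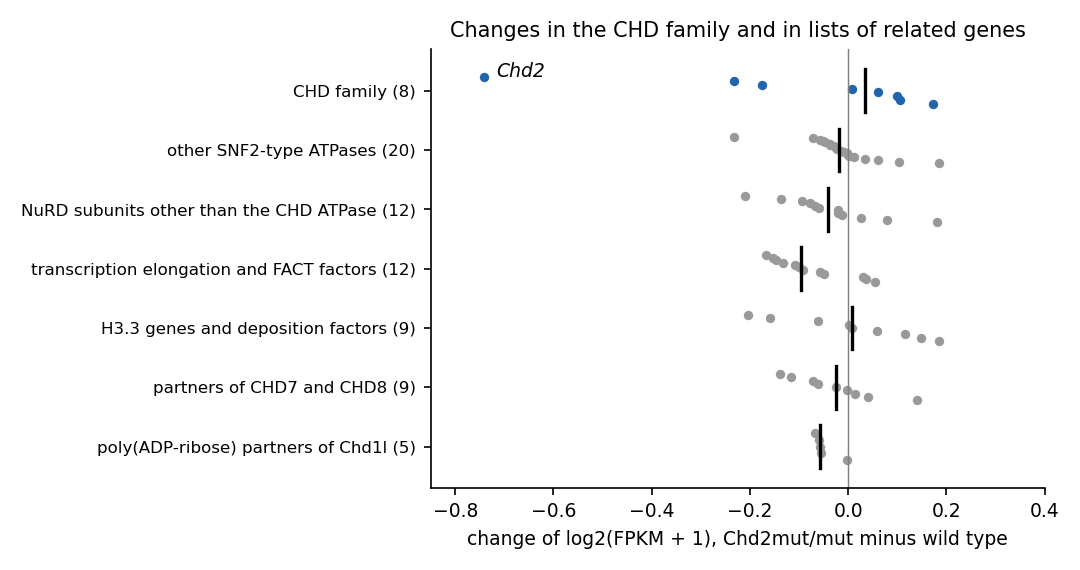
Change of log2(FPKM + 1), Chd2mut/mut minus wild type, of each gene averaging 1 FPKM or more in the family (top) and in 6 lists of related genes, with the number of genes in brackets and the median as a black bar. Chd2 lies at -0.74, and every other gene shown lies between -0.23 and 0.18.

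At the Chd2 locus neither neighbour with a value was called. 1810026B05Rik (Chaserr) was at 1.95 FPKM in the mutant and 1.94 FPKM in wild type, with a log2 fold change of 0.01 and a q-value of 0.998 in the authors' deposited table. Chd2 exceeded it in both genotypes. Rgma, the next gene on the other side, which encodes a repulsive guidance molecule, was at 0.394 FPKM in the mutant and 0.262 FPKM in wild type, with a q-value of 1. Within Chd8 the annotation places the small nucleolar RNA gene Snord8, which was listed at 0 in both genotypes.

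The promoters of 6 members (Chd4, Chd5, Chd6, Chd8, Chd9 and Chd1l) were matched in RefSeq (GRCm38.p6), as 300 bases from 250 before to 50 after a transcript start. The dinucleotide CG, read on the strand of the gene, was counted in each. The annotated starts of these genes held 17 to 33 CG, against a median of 7 over 32851 promoters, apart from a second Chd9 start with 1. The barely detected Chd5 had 32 and 33 CG at its 2 starts, a number reached by 9.52% and 8.56% of all promoters, while the abundant Chd4 had 17 and 29. Ordered by CG count, these members thus did not stand in the order of their RNA levels.

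Gene by gene, the values most like those of Chd2 in both genotypes were those of Gsta3, Ak7 and 2310039L15Rik, by distance over the 2 values of log2(FPKM + 1). Gsta3, a glutathione transferase gene, was at 5.85 FPKM in the mutant and 10.1 FPKM in wild type. Ak7, an adenylate kinase gene, was at 5.72 FPKM in the mutant and 9.49 FPKM in wild type, and 2310039L15Rik at 5.79 FPKM in the mutant and 9.48 FPKM in wild type. The authors' deposited table calls Gsta3 and Ak7 at a q-value of 0.0103 each, but gives 2310039L15Rik a q-value of 0.393, although its values nearly equal those of Ak7.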

How the data were processed

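RNA of 4 libraries was sequenced, 2 per genotype. The submitters' processing notes name TopHat2 2.1.0, Cufflinks (no version), bcl2fastq 2.17.1.14 and mouse build mm9, and no annotation. The authors deposited 1 FPKM value per gene and genotype and, per the file headers, a log2 fold change, a q-value and a call, by a test that is not stated. For all 10 members the fold change equals the plain ratio of mutant over wild type within 0.001. The planned limma fit needs values per library and was not run.

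Changes were computed as differences of log2(FPKM + 1), with a mean of at least 1 FPKM for lists (Python 3.11.15, pandas 2.3.3), and the computation was tested on simulated data. Of 71 list genes, 70 were matched, 3 of them by a RefSeq synonym. Genes of like level are those with a mean within 1.2-fold. Transcripts were the longest coding form in GENCODE M21. Named genes are the members, called list genes and the 3 largest changes per list, the 5 most abundant other ATPases, locus neighbours and the 3 genes nearest to Chd2. The members and lists were chosen with earlier results of these data known.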

Additional observations from a re-analysis of the deposited data

How the results depend on the processing

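No paired analysis was possible because the table holds 1 value per genotype, and for the same reason no library could be left out. Chd2 stayed lower in the mutant, from -0.84 without a pseudocount to -0.74 with the median change set to 0. No member's call could change, since calls are the authors'; when calls also had to reach 1 in absolute log2 fold change, 0 of 1 calls in the family were left, as Chd2 is at -0.84. The family's median change was 0.03, and 0.06 without Chd2 (a setting chosen after seeing the data). It was -0.18 with a mean of at least 5 FPKM, which keeps only the more abundant members, Chd2 among them. Of the uncalled members, Chd7 was at -0.01 under quantile normalization and at 0.01 as reported, Chd4 moved to -0.11, and Chd3 and Chd5 moved to 0.49 and -0.28 without a pseudocount. The number of members whose place differed between genotypes was 6 with and without quantile normalization. That method keeps the order of genes within each genotype, so this count could not change and does not test the ranking. Depth is unknown, which limits Chd3 and Chd5 most.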
